A study of Homo sapiens with 28 samples.

Results

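The interaction of RSL3 with linoleic acid (LA) was measured over all genes in the human fibrosarcoma line HT-1080, in 16 of the 28 libraries of the series. It is the log2 difference of RSL3+LA over LA minus the log2 difference of RSL3 over DMSO, so that a negative value means a smaller or more negative RSL3 response in cells that also received LA. The 4 groups of 4 libraries were 10 nM RSL3 with 80 µM LA (RSL3+LA), 80 µM LA alone, 10 nM RSL3 alone, and the vehicle DMSO, all treated overnight. Replicates are described as independent, and all come from 1 cell line, so p-values measure the spread between these cultures. RNA was sequenced as paired reads, and the values are gene counts. The 12 libraries of the other 3 groups, treated with conjugated fatty acids, were not used here except in an alternative fit.

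RSL3 is a covalent inhibitor of GPX4, the selenoenzyme that reduces phospholipid hydroperoxides, and cells that lose GPX4 activity can die by ferroptosis, a death driven by lipid peroxidation. LA is a polyunsaturated fatty acid whose bis-allylic carbon is a site of peroxidation, and free polyunsaturated fatty acids are also ligands of PPAR transcription factors and lower the processing of SREBP1, a factor of lipid synthesis genes related to SREBP2. Electrophiles and oxidants stabilise NRF2, which induces HMOX1, SLC7A11 and glutathione genes, while amino acid and endoplasmic reticulum stress act through ATF4, and mitogen and stress kinases through the AP-1 factors FOS and FOSB.

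Of 60286 listed genes, 15530 passed the low-count filter and were tested, and they held 99.88% of counts. Library totals ran from 16533930 to 24286824 counts. Of 12 mesenchymal and fibrosarcoma markers, 10 had a mean of at least 1 CPM (counts scaled to library size) in each group, at a summed level of 18500 to 22800 CPM per library. Of 14 epithelial markers, 3 reached that level, with sums of 6.02 to 9.65 CPM, and of 14 blood cell markers 0 did, with sums of 0.464 to 1.40 CPM. CPT1A, the PPAR-regulated carnitine palmitoyltransferase of mitochondrial fatty acid import, follows the LA label and averaged 45.0 ± 4.53 CPM in RSL3+LA and 44.3 ± 2.93 CPM in LA, against 9.07 ± 1.01 CPM in RSL3 and 9.83 ± 1.18 CPM in DMSO (SD, n = 4 each). GPX4 itself, whose protein is the target of RSL3 and whose mRNA is therefore no check of the labels, averaged 88.5 ± 8.13, 87.7 ± 3.35, 81.6 ± 4.55 and 82.0 ± 3.48 CPM in RSL3+LA, LA, RSL3 and DMSO, with an interaction of 0.02 (95% interval -0.15 to 0.19). The LA libraries stand later in the series than those of the other 3 groups and the labels give no batch. A batch and the LA group therefore cannot be told apart. This touches the interaction, RSL3+LA against LA, and LA against DMSO. RSL3 replicate 4 and LA replicate 4 had the lowest shares of mitochondrially encoded mRNA, 0.548% and 0.451% of counts, against 1.02% to 1.93% in the other 14 libraries.

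The question of the interaction is whether the RNA response to RSL3 differs in the presence of LA. With edgeR's quasi-likelihood test and a Benjamini-Hochberg adjusted threshold of 0.05, 4 genes (0.0258% of those tested) passed, and all 4 had a negative value: HMOX1, SLC7A11, DDIT4 and NPC1. No gene passed in the positive direction by this test or by limma voom, but the split of calls depends on the method. With limma voom and sample weights 1 was positive and 4 negative, with DESeq2 4 and 68, with DESeq2 without its independent filtering 20 and 31, in edgeR with a replicate block 15 and 25, and in edgeR with no low-count filter 145 and 113. At an unadjusted p under 0.05, 755 genes (4.86%) had a positive and 877 (5.65%) a negative interaction. Each of the 4 genes rose with RSL3 in the absence of LA, and of them HMOX1 alone also rose with RSL3 in its presence. Leaving out 1 library gave 3 to 7 calls, of which the 7 came without RSL3+LA replicate 4, RSL3 replicate 1 or RSL3 replicate 2, and leaving out both RSL3 replicate 4 and LA replicate 4 left 1, HMOX1.

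Among the 18 genes that passed either in the interaction or in RSL3+LA against LA, 10 had an entry in the RefSeq promoter table (GRCh38.p14). The 250 bases before the RefSeq start are shown for DDIT4 and NPC1, which are the interaction genes with an entry. They are also shown for FOS, FOSB and ATF3, the AP-1 family genes that rose with RSL3 both with and without LA. They are the windows chr10:72273674-72273923 on the plus strand, chr18:23586507-23586756 on the minus strand, chr14:75278578-75278827, chr19:45467746-45467995 and chr1:212565157-212565406 on the plus strand, and each is written 5′ to 3′ in the direction of the gene. The RefSeq starts differ from the GENCODE positions given below. The NPC1 window lies inside the GENCODE gene, and the other windows reach or run past the GENCODE start of their gene. Capitals mark a match to a searched motif.
DDIT4: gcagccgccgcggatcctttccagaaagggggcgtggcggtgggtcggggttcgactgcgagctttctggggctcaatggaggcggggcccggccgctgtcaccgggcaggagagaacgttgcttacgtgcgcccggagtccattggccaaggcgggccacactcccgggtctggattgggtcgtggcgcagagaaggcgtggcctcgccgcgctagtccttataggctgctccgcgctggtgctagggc
NPC1: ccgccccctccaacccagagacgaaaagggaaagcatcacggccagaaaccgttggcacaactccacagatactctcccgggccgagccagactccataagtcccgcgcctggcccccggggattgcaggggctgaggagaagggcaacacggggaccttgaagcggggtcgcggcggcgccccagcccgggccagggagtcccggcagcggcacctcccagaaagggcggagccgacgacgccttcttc
FOS: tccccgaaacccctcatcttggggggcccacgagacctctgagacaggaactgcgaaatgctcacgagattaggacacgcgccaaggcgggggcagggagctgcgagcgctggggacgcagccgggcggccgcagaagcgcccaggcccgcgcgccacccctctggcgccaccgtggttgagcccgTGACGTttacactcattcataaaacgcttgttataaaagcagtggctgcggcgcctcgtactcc
FOSB: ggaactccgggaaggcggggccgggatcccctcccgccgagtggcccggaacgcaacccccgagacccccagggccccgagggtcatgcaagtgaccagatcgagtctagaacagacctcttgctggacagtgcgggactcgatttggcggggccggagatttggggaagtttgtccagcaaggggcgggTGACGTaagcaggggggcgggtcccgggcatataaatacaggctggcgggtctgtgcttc
ATF3: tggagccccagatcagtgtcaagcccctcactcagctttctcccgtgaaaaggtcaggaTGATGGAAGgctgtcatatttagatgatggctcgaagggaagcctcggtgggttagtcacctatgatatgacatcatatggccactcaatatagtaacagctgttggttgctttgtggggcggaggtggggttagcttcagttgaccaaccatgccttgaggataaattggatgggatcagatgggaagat
The motifs searched on both strands were TGACNNNGC (antioxidant response element, in 10.9% of 35116 promoter entries), TGANTCA (AP-1, 6.57%), TGATGNAAN (ATF4 element, 3.13%), TCACNCCAC (sterol element, 0.883%), a PPAR element (0.0171%), a heat shock element (0.441%) and TGACGT (the core of the cAMP response element, 7.10%). The last was added after the windows of FOS and FOSB had been read. FOS and FOSB hold TGACGT, starting 64 and 60 bases before the RefSeq start, and ATF3 holds TGATGGAAG, starting 191 bases before it. None of these letters occur in the windows of DDIT4 and NPC1. HMOX1 and SLC7A11 have no entry, and no sequence is shown for them.

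HMOX1 (ENSG00000100292.16, chromosome 22, 35380361 to 35394214, plus strand, GRCh38 with GENCODE 29) encodes heme oxygenase 1, which breaks heme down to biliverdin, carbon monoxide and iron. Its level was 116, 114, 82.1 and 80.3 CPM in RSL3+LA, against 50.5, 47.5, 59.1 and 59.1 CPM in LA. Without LA it was 126, 126, 128 and 157 CPM in RSL3, against 30.2, 26.8, 27.6 and 24.8 CPM in DMSO. The groups overlap in neither pair, RSL3+LA replicates 1 and 2 lie above replicates 3 and 4, and the LA cells lie between the DMSO and the RSL3+LA cells. The RSL3 response was a log2 fold change of 0.86 ± 0.10 with LA (1.81-fold, adjusted p = 1.52e-04) and 2.29 ± 0.11 without (4.91-fold, adjusted p = 2.72e-12). The interaction was -1.44 ± 0.15 (95% interval -1.75 to -1.12, adjusted p = 2.92e-05). Both sides of the subtraction differed: HMOX1 was higher in LA than in DMSO by 0.98 (adjusted p = 1.39e-06) and lower in RSL3+LA than in RSL3, at -0.45 (adjusted p = 0.00302). On the linear scale, RSL3 added 43.9 CPM with LA and 107 CPM without, an interaction of -63.0 ± 12.8 CPM (SE). The call held in all 25 alternatives that gave the gene an adjusted p.

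SLC7A11 (ENSG00000151012.13, chromosome 4, 138164097 to 138242349, minus strand) encodes the light chain of the cystine/glutamate antiporter, which supplies cysteine for glutathione. It was at 42.7, 38.8, 31.6 and 31.5 CPM in RSL3+LA, against 30.7, 31.5, 32.3 and 33.6 CPM in LA. In the absence of LA it was at 36.8, 34.2, 35.5 and 37.7 CPM in RSL3, against 19.7, 18.6, 17.0 and 20.6 CPM in DMSO. The DMSO libraries stand below all others, while the RSL3+LA and LA libraries overlap. Its RSL3 response was 0.17 ± 0.08 with LA (adjusted p = 0.390) and 0.93 ± 0.09 without (adjusted p = 1.15e-06), and the interaction was -0.75 ± 0.12 (95% interval -1.0 to -0.51, adjusted p = 0.00841). SLC7A11 was higher in LA than in DMSO by 0.76 (adjusted p = 1.02e-06), whereas RSL3+LA and RSL3 differed by 0.01 (adjusted p = 0.979). The interaction of this gene thus rests on LA against DMSO, where a batch and LA cannot be told apart. In CPM, RSL3 added 4.11 with LA and 17.1 without, an interaction of -12.9 ± 3.03 CPM (SE).

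DDIT4 (ENSG00000168209.4, chromosome 10, 72273920 to 72276036, plus strand) encodes REDD1, a stress-induced inhibitor of mTORC1 and an ATF4 target. Its level was 6.44, 7.52, 4.34 and 3.95 CPM in RSL3+LA, against 5.08, 5.30, 5.00 and 7.28 CPM in LA. In the absence of LA it was 10.3, 10.4, 9.17 and 9.91 CPM in RSL3, against 2.88, 3.33, 4.13 and 2.95 CPM in DMSO. RSL3 libraries stand above all 12 others, and RSL3+LA and LA libraries overlap. The RSL3 response was -0.03 ± 0.17 with LA (95% interval -0.39 to 0.33) and 1.57 ± 0.18 without (2.97-fold, adjusted p = 1.73e-05). The interaction was -1.60 ± 0.25 (95% interval -2.12 to -1.09, adjusted p = 0.00841), the most negative of the 4. DDIT4 was higher in LA than in DMSO by 0.77 (adjusted p = 0.00576) and lower in RSL3+LA than in RSL3 at -0.84 (adjusted p = 0.00123). On the CPM scale the interaction was -6.72 ± 1.08 (SE).

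NPC1 (ENSG00000141458.12, chromosome 18, 23506184 to 23586898, minus strand) encodes the late endosomal and lysosomal membrane protein that exports LDL-derived cholesterol. It was at 97.7, 91.4, 97.0 and 85.8 CPM in RSL3+LA, against 98.1, 96.3, 96.6 and 101 CPM in LA. Without LA it was at 112, 108, 108 and 119 CPM in RSL3, against 86.8, 93.4, 88.8 and 92.7 CPM in DMSO. The RSL3 libraries alone stand above the rest. The RSL3 response was -0.08 ± 0.05 with LA (adjusted p = 0.525) and 0.31 ± 0.05 without (1.24-fold, adjusted p = 9.67e-04), and the interaction was -0.38 ± 0.07 (95% interval -0.52 to -0.25, adjusted p = 0.0226). This call is the least stable of the 4: it was lost without RSL3+LA replicate 2 (adjusted p = 0.0563), LA replicate 1 (0.0618), LA replicate 4 (0.0986), DMSO replicate 1 (0.113) or DMSO replicate 3 (0.0801). DDIT4 and SLC7A11 lost theirs with RSL3 replicate 4 and LA replicate 4 both left out (adjusted p = 0.0590 and 0.0621), where their values were still -1.45 and -0.71.

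**Figure D1:**
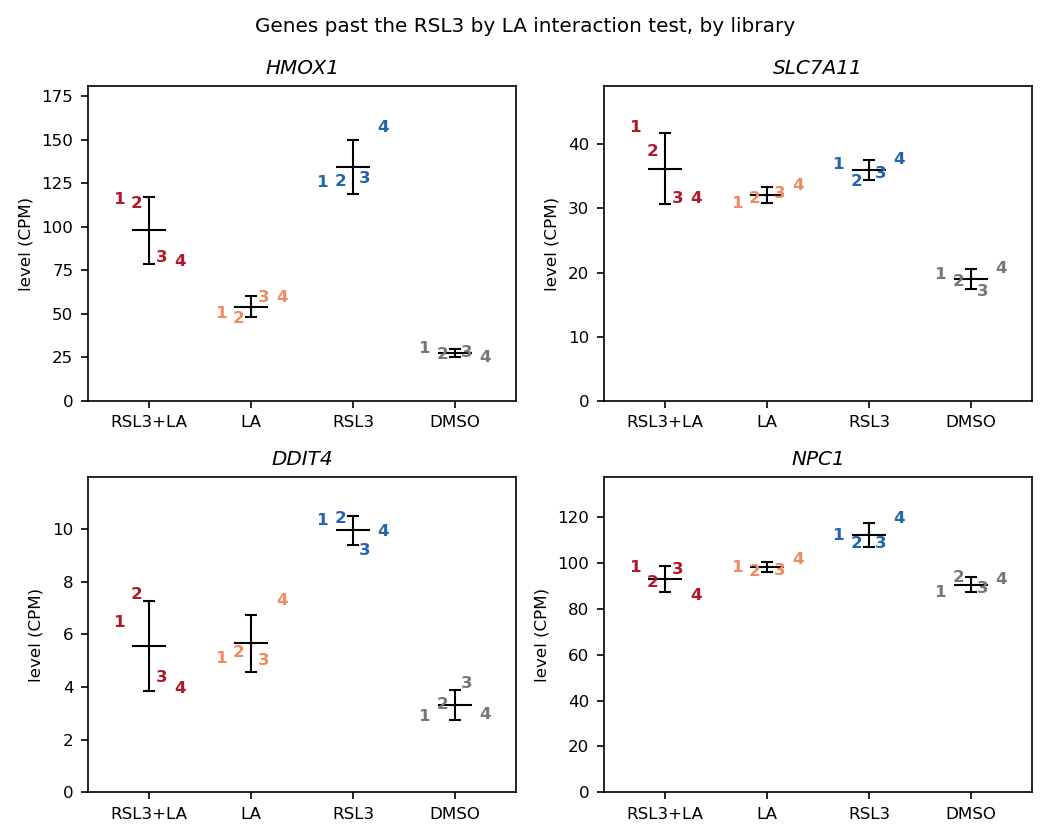
Level in CPM (y axis, from 0) of the 4 genes past the interaction test in each library of RSL3+LA, LA, RSL3 and DMSO (x axis). Each digit is 1 library, placed by its replicate number, with the mean and SD of 4 as lines. In all 4 panels the step between RSL3 and DMSO is larger than that between RSL3+LA and LA. The genes were chosen for a difference between these steps, so the panels add no support.

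Genes next in order of p did not pass in either direction. SNHG3, a host gene of small nucleolar RNAs, had an interaction of 0.62 ± 0.12 (adjusted p = 0.0583), EPS8L2, an actin regulator, 0.42 ± 0.08 (adjusted p = 0.0817), and TROAP, a spindle protein gene, 0.40 ± 0.08 (adjusted p = 0.0923). IL11, a cytokine gene, had 0.28 ± 0.06 (adjusted p = 0.119). MHENCR had 0.76 ± 0.16 (adjusted p = 0.119) and is an antisense gene whose reads cannot be told apart from its partner's without a stated strand setting. SNHG3 was at 85.4 to 105 CPM in RSL3+LA, against 63.5 to 81.2 CPM in LA, and at 72.6 to 100 CPM in RSL3, against 96.6 to 106 CPM in DMSO, so the LA libraries are at the low end. On the negative side B4GALT6, a lactosylceramide synthase gene, had -0.48 ± 0.09 (adjusted p = 0.0817). The median SE of the interaction was 0.104 over the 11965 genes of at least 2 CPM, against 0.0730 for RSL3+LA over LA and 0.0735 for RSL3 over DMSO. 

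Most genes called with RSL3 in the absence of LA kept their sign in its presence, 32 of 38. Over the 11965 genes of at least 2 CPM and with all 16 libraries, the RSL3 responses with and without LA were nearly uncorrelated. The correlation without RSL3 replicate 4 and LA replicate 4 was not computed, so its dependence on these libraries is not known. Most of these genes were called in neither comparison, and their median SE was 0.0730 with LA and 0.0735 without. Pearson's r was 0.05 and Spearman's rho 0.029, over comparisons that share no library. In the same genes the LA responses with and without RSL3, also over separate libraries, had 0.531 and 0.505. Genes are not independent replicates, and these are descriptions. RSL3 against DMSO called 38 genes (0.245%), of which 29 were higher (0.187%) and 9 lower (0.0580%), and RSL3+LA against LA called 15 (0.0966%). The 4 genes called in both were FOS, FOSB, ATF3 and HMOX1, 10.5% of the 38 and 26.7% of the 15. Of the 29 genes higher without LA, 25 had a positive value with LA and 4 passed there, and their median log2 fold change was 0.17 with LA and 0.38 without. Of the 9 lower without LA, 7 had a negative value with LA and 0 passed, with medians of -0.14 with LA and -0.50 without. These sets were chosen by their values without LA, so the smaller medians with LA support nothing. By contrast LA against DMSO called 1927 genes (12.4%) and RSL3+LA against RSL3 called 2300 (14.8%), with 1071 in common, 55.6% of the first and 46.6% of the second, and 1069 of these had the same sign.

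**Figure D2:**
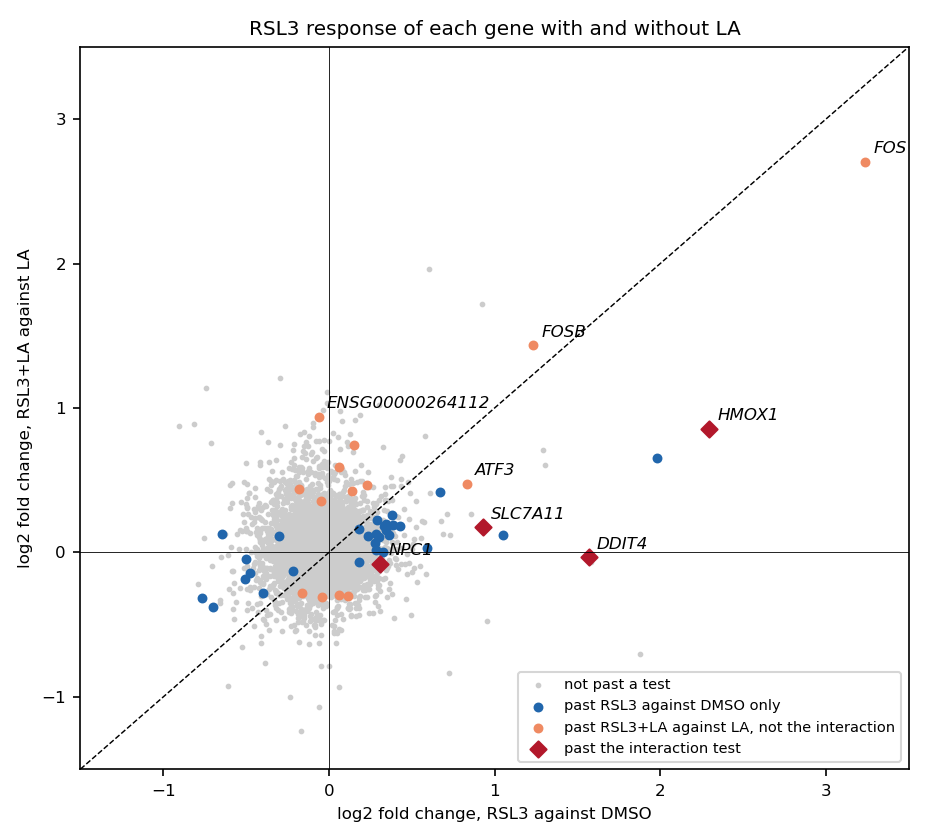
Log2 fold change of RSL3+LA over LA (y axis) against that of RSL3 over DMSO (x axis) for 11965 genes of at least 2 CPM, 8 of them outside the axes. The dashed line marks equal responses, and of the genes past the interaction test HMOX1 (0.86 with LA, 2.29 without), SLC7A11, DDIT4 and NPC1 all lie below it.

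RSL3+LA against LA asks what RSL3 does in cells given the fatty acid. Of the 15 genes that passed, 11 were higher (0.0708%) and 4 lower (0.0258%), and the immediate early genes FOS and FOSB had the largest changes. The other 9 that rose were HMOX1, ATF3, the lncRNA ENSG00000264112, NPIPB5, GPR132, MDM4, SNHG3, CLCF1 and TROAP, and those that fell included SOGA1, THBS2 and HMGCS1. In 8 of the 11 the LA group had the lowest mean of the 4 groups and in 5 RSL3+LA had the highest, and of the 4 that fell, LA had the highest mean in 2, SOGA1 and THBS2, and RSL3+LA the lowest in all 4. The genes were chosen for a difference between these groups, which in itself places LA or RSL3+LA at an end, so nothing is read from these counts. The count depends on single libraries: it was 68 without LA replicate 2, 53 without RSL3 replicate 4, 24 without RSL3+LA replicate 4, and 8, 9, 6 and 8 without RSL3+LA replicates 1, 2 and 3 and LA replicate 4, each with a refit of the spread.

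FOS (ENSG00000170345.9, chromosome 14, 75278774 to 75282230, plus strand) encodes an AP-1 subunit that is transcribed within minutes of a stimulus. It was at 5.91, 5.31, 3.00 and 3.90 CPM in RSL3+LA, against 0.570, 0.482, 0.598 and 1.06 CPM in LA. In cells without LA it was at 4.48, 4.89, 3.29 and 6.13 CPM in RSL3, against 0.641, 0.516, 0.609 and 0.17 CPM in DMSO. Both groups with RSL3 lie above both without it, and RSL3+LA and RSL3 overlap. FOS rose by 2.71 ± 0.30 with LA (6.53-fold, adjusted p = 5.80e-05) and by 3.24 ± 0.32 without (9.42-fold, adjusted p = 2.06e-06). The interaction of -0.53 ± 0.45 (95% interval -1.47 to 0.41, adjusted p = 0.728) did not pass, with a wide interval around a gene that lies at about 1 CPM or less without RSL3.

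FOSB (ENSG00000125740.13, chromosome 19, 45467995 to 45475179, plus strand), another AP-1 subunit, was at 6.22, 7.27, 5.58 and 4.26 CPM in RSL3+LA, against 1.97, 2.76, 2.07 and 1.80 CPM in LA. Without LA it was at 7.30, 6.91, 6.04 and 5.25 CPM in RSL3, against 2.67, 2.63, 3.00 and 2.50 CPM in DMSO. It rose by 1.44 ± 0.18 with LA (2.71-fold, adjusted p = 1.52e-04) and by 1.23 ± 0.17 without (2.35-fold, adjusted p = 3.34e-04), and the interaction was 0.20 ± 0.25 (95% interval -0.31 to 0.71). As for FOS, the groups with RSL3 do not overlap those without. The calls of FOS and FOSB held in all 27 alternatives.

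ATF3 (ENSG00000162772.16, chromosome 1, 212565334 to 212620777, plus strand) encodes a stress-induced factor of the ATF and CREB family that is both an AP-1 partner and an ATF4 target. It was at 18.0, 17.6, 14.4 and 15.3 CPM in RSL3+LA, against 13.1, 12.3, 10.2 and 11.4 CPM in LA. In cells without LA it was at 27.9, 29.3, 31.8 and 30.3 CPM in RSL3, against 16.6, 17.9, 14.8 and 17.7 CPM in DMSO. It was higher with RSL3 than without in both settings, and lower with LA than without in both. The mean was 16.3 ± 1.75 CPM in RSL3+LA, beside 16.8 ± 1.43 CPM in DMSO (SD, n = 4 each). The RSL3 response was 0.48 ± 0.09 with LA (adjusted p = 0.0361) and 0.83 ± 0.09 without (adjusted p = 4.22e-06), with an interaction of -0.36 ± 0.13 that did not pass (adjusted p = 0.297). The LA response was -0.87 with RSL3 (adjusted p = 1.28e-07) and -0.51 without (adjusted p = 3.75e-04).

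Of the 24 AP-1 and immediate early genes tested, FOS, FOSB and ATF3 were the 3 that passed in RSL3+LA against LA, where 11 (0.0708%) of all genes were called higher. The list's median was 0.01 with LA and 0.08 without, against 0.002 and 0.004 over all genes. JUN, the dimer partner of FOS, was at -0.00 ± 0.05 with LA and -0.05 ± 0.05 without, and EGR1, another immediate early factor, at 0.22 ± 0.17 and 0.68 ± 0.16 (adjusted p = 0.634 and 0.0952). None of the 24 passed in the interaction by edgeR's test, 0 were positive and 2 (8.33%) negative at an unadjusted p under 0.05, near the 4.86% and 5.65% over all genes, and the list's median interaction was -0.047, against -0.003 over all genes.

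The remaining higher genes carry smaller changes. TROAP was at 45.0, 44.7, 51.0 and 45.6 CPM in RSL3+LA, against 35.7, 39.1, 34.8 and 35.8 CPM in LA (0.36 ± 0.06, adjusted p = 0.00930), while RSL3 and DMSO had 42.2 to 46.6 and 45.0 to 49.5 CPM. SNHG3 was 0.44 ± 0.08 (adjusted p = 0.0271), MDM4, a p53 inhibitor, 0.47 ± 0.09 (adjusted p = 0.0199), CLCF1, a cytokine of the IL-6 family, 0.42 ± 0.08 (adjusted p = 0.0457), and GPR132, a G protein-coupled receptor that responds to oxidised fatty acids, 0.59 ± 0.11 (adjusted p = 0.0361). GPR132 was at 14.3, 12.9, 14.6 and 11.2 CPM in RSL3+LA, against 9.53, 10.5, 7.67 and 7.48 CPM in LA, and at 9.25 to 11.1 CPM in RSL3, against 9.18 to 11.0 CPM in DMSO. MDM4 was at 19.3 to 22.9 CPM in RSL3+LA, against 13.8 to 18.3 CPM in LA, and at 15.9 to 17.9 CPM in RSL3, against 14 to 15.5 CPM in DMSO. Its groups overlap in neither pair, and the response without LA was 0.23 ± 0.09 (adjusted p = 0.387). The lncRNA ENSG00000264112 (chromosome 17, 57989039 to 57994850, minus strand) was 0.94 ± 0.16 (adjusted p = 0.00930). NPIPB5, at 0.74 ± 0.10 (adjusted p = 0.00102), belongs to a family of near-identical copies between which reads can be split, so its value is uncertain. The calls of GPR132, ATF3, CLCF1 and THBS2 were lost in 12, 11, 15 and 16 of 27 alternatives, and those of MDM4, SNHG3 and HMGCS1 in 7, 7 and 5. Those of ENSG00000264112, TROAP and SOGA1 were lost in 3, 3 and 2, and that of NPIPB5 in 0.

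**Figure D3:**
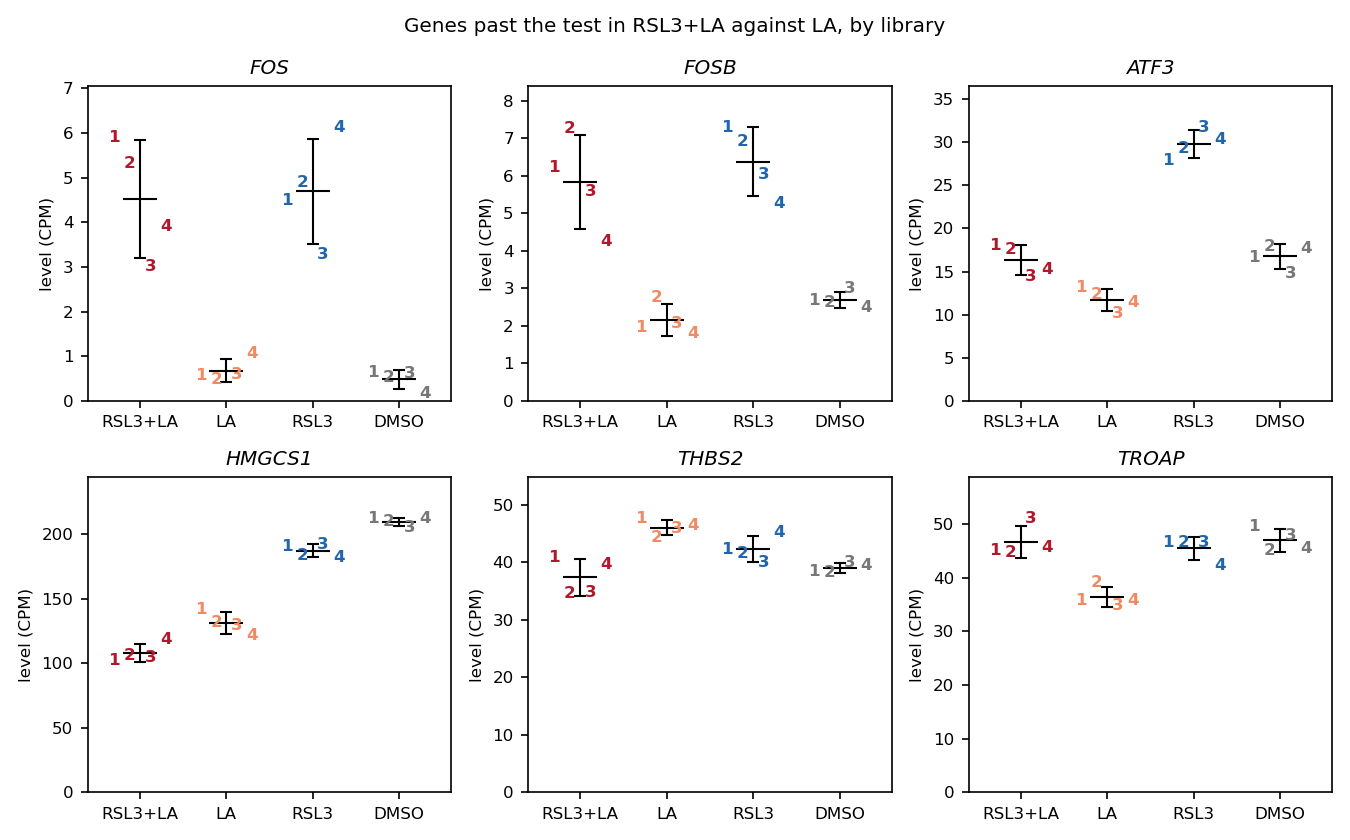
Level in CPM (y axes, from 0) of 6 genes that passed in RSL3+LA against LA, in RSL3+LA, LA, RSL3 and DMSO. Digits are libraries by replicate number, with the mean and SD of 4 as lines. FOS and FOSB are higher in both groups with RSL3 than in both without it. ATF3 is higher in RSL3+LA than in LA and in RSL3 than in DMSO, while RSL3+LA and DMSO overlap. The means of HMGCS1 and THBS2 are lowest in RSL3+LA, and TROAP is lower in LA than in the other 3 groups.

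SOGA1, at -0.04 ± 0.05 without LA, was at 72.3, 60.8, 67.2 and 60.9 CPM in RSL3+LA, against 80.9, 78.2, 83.6 and 80.4 CPM in LA, and fell by 0.31 on the log2 scale (SE 0.05, adjusted p = 0.00930). TENM2, a teneurin adhesion gene next in order, did not pass at -0.29 ± 0.06 (adjusted p = 0.0533), with 142 to 160 CPM in RSL3+LA, against 172 to 191 CPM in LA.

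Among cholesterol genes, HMGCS1 (ENSG00000112972.14, chromosome 5, 43289395 to 43313512, minus strand), the cytosolic HMG-CoA synthase of the mevalonate pathway, was at 103, 106, 105 and 118 CPM in RSL3+LA, against 142, 131, 130 and 121 CPM in LA. It was at 191, 184, 192 and 182 CPM in RSL3, against 212, 210, 206 and 212 CPM in DMSO, and the groups overlap in neither pair. HMGCS1 fell by 0.28 on the log2 scale with LA (SE 0.05, adjusted p = 0.0124) and was at -0.16 ± 0.05 without (adjusted p = 0.199), and its interaction of -0.11 ± 0.07 did not pass (adjusted p = 0.572).

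Of the 25 tested cholesterol synthesis and SREBP2 target genes, 22 had a negative value in RSL3+LA against LA, 13 of them at an unadjusted p under 0.05 against 940 (6.05%) over all genes. The median was -0.139 with LA, and -0.008 without, where 0 of 25 passed. SQLE, the squalene epoxidase, was at -0.16 ± 0.04 with LA and 0.03 ± 0.04 without (adjusted p = 0.147 and 0.868), and did not pass. The median interaction of the list was -0.117, with 19 of 25 negative, 9 of them (36.0%) at an unadjusted p under 0.05 against 5.65% over all genes, and 0 passed the adjusted test. INSIG1, the sterol-induced retention factor of SREBP, had -0.18 ± 0.06 (adjusted p = 0.243), at 86.1 to 87.3 CPM in RSL3+LA, against 89.0 to 96.3 CPM in LA. TM7SF2, a sterol C14 reductase, went the other way, at 0.74 ± 0.15 with LA (adjusted p = 0.0533). Without RSL3 replicate 4 and LA replicate 4 the list's median interaction was -0.136. In that fit 8 genes (32%, against 3.6% over all genes) were negative at an unadjusted p under 0.05.

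NRF2 targets were the list with most calls to RSL3 without LA. In the interaction 2 of its genes passed, HMOX1 and SLC7A11, where 0.0258% of all genes passed. Both are also on the list of ferroptosis regulators. Of 34 tested, 10 rose with RSL3 without LA, where 0.187% of all genes were called higher. With LA 1 rose, HMOX1, where 0.0708% of all genes were called higher. The median was 0.122 with LA and 0.157 without, 30 of 34 were positive with LA, and 15 were so at an unadjusted p under 0.05 against 981 (6.32%) over all genes. The median interaction was -0.078, with 7 negative (20.6%, against 5.65% over all genes) and 0 positive at an unadjusted p under 0.05. Without RSL3 replicate 4 and LA replicate 4 it was -0.061, with 6 negative (17.6%, against 3.6% over all genes) and 0 positive.

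Members below the threshold of the interaction differed in size. FTL, the ferritin light chain, was at 997, 1020, 1020 and 944 CPM in RSL3+LA, against 859, 842, 899 and 871 CPM in LA, and at 707, 707, 733 and 832 CPM in RSL3, against 585, 596, 595 and 574 CPM in DMSO. The groups overlap in neither pair, and the RSL3 response was 0.20 ± 0.05 with LA (adjusted p = 0.0852) and 0.34 ± 0.05 without (adjusted p = 2.05e-04), with an interaction of -0.15 ± 0.06 (adjusted p = 0.424). GCLM, the modifier subunit of glutamate-cysteine ligase, was at 0.26 ± 0.06 with LA (adjusted p = 0.0900) and 0.38 ± 0.06 without (adjusted p = 0.00316), with an interaction of -0.12 ± 0.09. OSGIN1, an oxidative stress growth inhibitor, had 0.42 ± 0.09 (adjusted p = 0.0822) and 0.67 ± 0.09 (adjusted p = 3.34e-04), and an interaction of -0.25 ± 0.13. The 95% interval of these 3 interactions reaches -0.28, -0.30 and -0.52 at its low end, so that a difference of that size is not excluded for any of them.

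SQSTM1, the autophagy receptor p62, had an interaction of -0.24 ± 0.07 (adjusted p = 0.243) and TXNRD1, the cytosolic thioredoxin reductase, -0.19 ± 0.06 (adjusted p = 0.256). NQO1, a quinone reductase, had -0.19 ± 0.08 (adjusted p = 0.420) and FTH1, the ferritin heavy chain, -0.20 ± 0.11 (adjusted p = 0.529). AKR1C1, an aldo-keto reductase with near-identical family members, had the most negative value of the list, -2.20 ± 0.50, which did not pass (adjusted p = 0.119). It is weakly expressed, at 0.879 to 1.65 CPM in RSL3+LA, against 1.01 to 1.25 CPM in LA, and at 0.675 to 1.93 CPM in RSL3, against 0.188 to 0.374 CPM in DMSO. The DMSO libraries alone are low, the pattern also seen for SLC7A11.

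**Figure D4:**
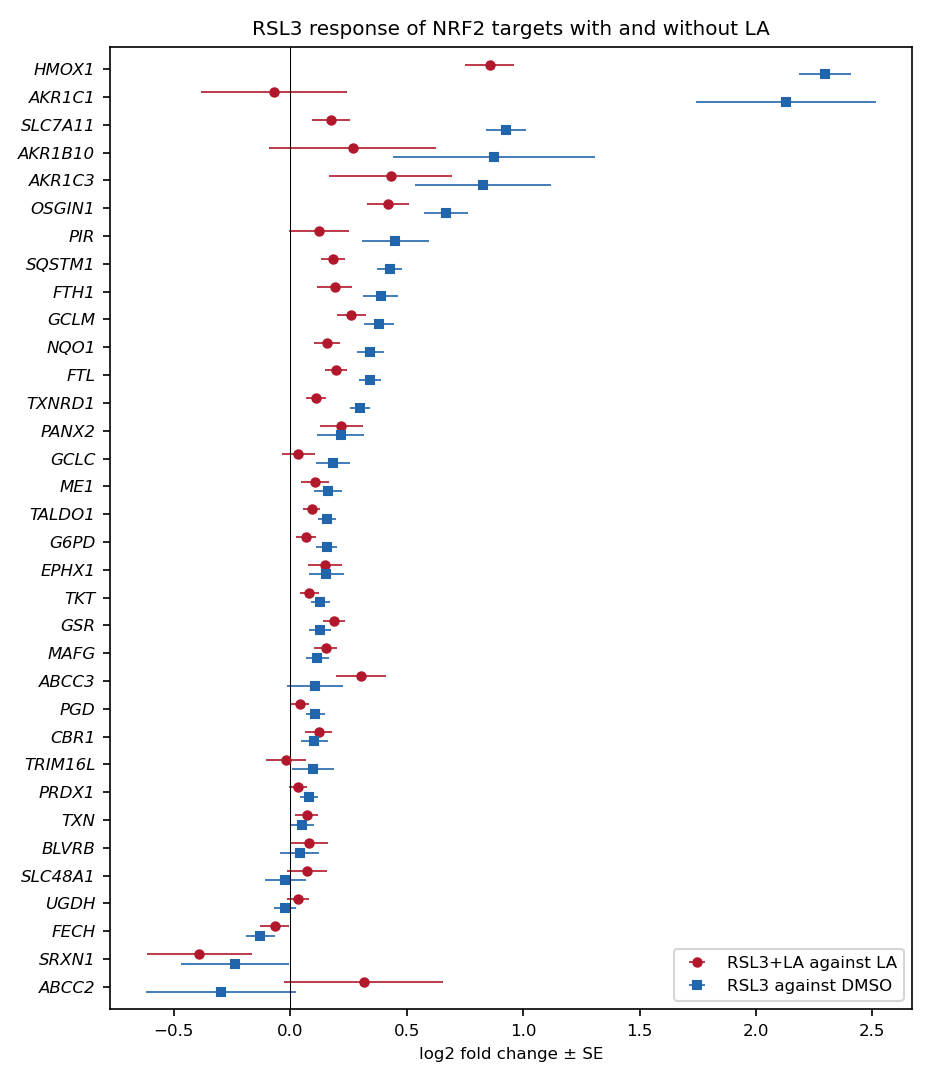
Log2 fold change ± SE of RSL3+LA over LA (circles) and RSL3 over DMSO (squares) for the 34 NRF2 targets tested, ordered by the value without LA. HMOX1, SLC7A11 and AKR1C1 show the widest gaps, of which AKR1C1 did not pass the interaction test, while PANX2 and GSR lie at about the same value in both.

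Stress lists beyond NRF2 had negative medians in the interaction with few or no calls. Of 31 tested ATF4 and integrated stress response genes, DDIT4 was the 1 that passed, where 0.0258% of all genes did. The median was -0.117, and 10 were negative (32.3%, against 5.65% over all genes) and 1 positive at an unadjusted p under 0.05. Without RSL3 replicate 4 and LA replicate 4 the median was -0.113, with 7 negative (22.6%, against 3.6%) and 0 positive. Their median RSL3 response was 0.004 with LA and 0.139 without, with 0 and 2 calls, against 0.0966% and 0.245% called over all genes. PPP1R15A, the regulatory subunit that reverses eIF2α phosphorylation, was at 0.12 ± 0.05 with LA and 0.36 ± 0.05 without (adjusted p = 0.332 and 3.34e-04), with an interaction of -0.24 ± 0.07 (adjusted p = 0.234). SESN2, a leucine sensor, had -0.27 ± 0.08 (adjusted p = 0.243), and CHAC1, a glutathione-degrading enzyme, -0.64 ± 0.24 (adjusted p = 0.343). CHAC1 was at 2.56 to 4.52 CPM in RSL3+LA, against 2.82 to 4.46 CPM in LA, and at 5.46 to 5.80 CPM in RSL3, against 3.29 to 4.70 CPM in DMSO. TRIB3, an ATF4 target and inhibitor, had -0.19 ± 0.09, and DDIT3, the factor CHOP, -0.25 ± 0.20 (95% interval -0.66 to 0.17).

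Of 21 endoplasmic reticulum unfolded protein response genes 0 passed by edgeR's test, 8 were negative (38.1%, against 5.65% over all genes) and 0 positive at an unadjusted p under 0.05, and the median was -0.077. Without RSL3 replicate 4 and LA replicate 4 the negative count fell to 5 (23.8%, against 3.6%), and the median was again -0.077. HSPA5, the chaperone BiP, had -0.19 ± 0.06 (adjusted p = 0.243), and SEL1L, a subunit of the degradation complex, -0.26 ± 0.08 (adjusted p = 0.234). Among 16 cytosolic heat shock genes 0 passed, 9 were negative (56.2%, against 5.65%) and 1 positive at an unadjusted p under 0.05, and the median was -0.133. Without these 2 libraries it was -0.124, with 7 negative (43.8%, against 3.6%) and 1 positive. HSP90AA1, the inducible cytosolic HSP90, had -0.21 ± 0.06 (adjusted p = 0.215) and DNAJB1, an inducible co-chaperone of HSP70, -0.24 ± 0.07 (adjusted p = 0.229). HSPA6, a strictly inducible HSP70 with close paralogs, was at 2.45, 2.41, 1.24 and 1.85 CPM in RSL3+LA, against 1.24, 1.23, 1.20 and 1.35 CPM in LA. It was at 6.32, 6.53, 5.41 and 7.12 CPM in RSL3, against 2.13, 1.50, 1.52 and 1.25 CPM in DMSO, and the RSL3 libraries stand above all others. Its RSL3 response was 0.66 ± 0.22 with LA (adjusted p = 0.219) and 1.98 ± 0.20 without (adjusted p = 3.56e-06), and its interaction of -1.32 ± 0.30 did not pass (adjusted p = 0.119).

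Ferroptosis regulators other than HMOX1 and SLC7A11 did not pass. Of 39 tested, HMOX1 and SLC7A11 included, 9 were negative (23.1%, against 5.65% over all genes) and 2 positive at an unadjusted p under 0.05. The median was -0.069. Without RSL3 replicate 4 and LA replicate 4, 7 were negative (17.9%, against 3.6%) and 2 positive, with a median of -0.066. ACSL4, the acyl-CoA ligase that activates polyunsaturated fatty acids, had -0.17 ± 0.07 (adjusted p = 0.346), and TFRC, the transferrin receptor, -0.19 ± 0.06 (adjusted p = 0.256). AIFM2, the ubiquinone reductase FSP1, had 0.01 (95% interval -0.24 to 0.25), and PTGS2, a cyclooxygenase gene used as a ferroptosis marker, -0.29 (95% interval -0.71 to 0.14). CXCL8, the neutrophil chemokine, was at 3.41 to 4.01 CPM in RSL3+LA, against 2.85 to 3.81 CPM in LA, and at 2.88 to 4.70 CPM in RSL3, against 1.55 to 2.13 CPM in DMSO, with an interaction of -0.93 ± 0.25 (adjusted p = 0.215). GDF15, a stress-induced cytokine, averaged 416 ± 47.7 CPM in RSL3+LA, 406 ± 20.1 in LA, 254 ± 15.5 in RSL3 and 231 ± 8.55 in DMSO (SD, n = 4 each), with an interaction of -0.11 ± 0.09 (95% interval -0.29 to 0.07).

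PPAR targets and fatty acid oxidation genes did not pass. Their median over 27 genes was 0.040, with 1 positive and 0 negative at an unadjusted p under 0.05. CPT1A had 0.13 ± 0.13 (95% interval -0.14 to 0.40) and SLC25A20, the carnitine-acylcarnitine carrier, -0.09 ± 0.14 (95% interval -0.38 to 0.20). CPT1A was nevertheless 4.93-fold higher in RSL3+LA than in RSL3 and 4.49-fold higher in LA than in DMSO. Among 31 lysosome and autophagy genes NPC1 was the 1 that passed, where 0.0258% of all genes did. At an unadjusted p under 0.05, 2 were negative (6.45%, near the 5.65% over all genes) and 1 positive, with a median of -0.045.

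Of 35 extracellular matrix and adhesion genes 0 passed in the interaction, 14 were negative (40.0%, against 5.65% over all genes) and 2 positive at an unadjusted p under 0.05, and the median was -0.116. Without RSL3 replicate 4 and LA replicate 4 the negative count fell to 9 (25.7%, against 3.6%), with 2 positive and a median of -0.093. COL6A3, a collagen VI chain, had -0.43 ± 0.09 (adjusted p = 0.0817), and THBS2, thrombospondin 2, -0.41 ± 0.08 (adjusted p = 0.0923). THBS2 was at 40.8, 34.5, 34.8 and 39.6 CPM in RSL3+LA, against 47.6, 44.3, 45.8 and 46.3 CPM in LA, and fell by 0.30 on the log2 scale (SE 0.06, adjusted p = 0.0457). COL10A1, a collagen X chain, went the other way at 0.77 ± 0.18 (adjusted p = 0.119). The interaction also moved with gene length: its median was 0.025 in the fifth of genes with the shortest summed exons and -0.068 in the fifth with the longest (8410 bases or more), and 0.025 and -0.046 without RSL3 replicate 4 and LA replicate 4. The part of gene length in the value of the extracellular matrix list was not tested.

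**Figure D5:**
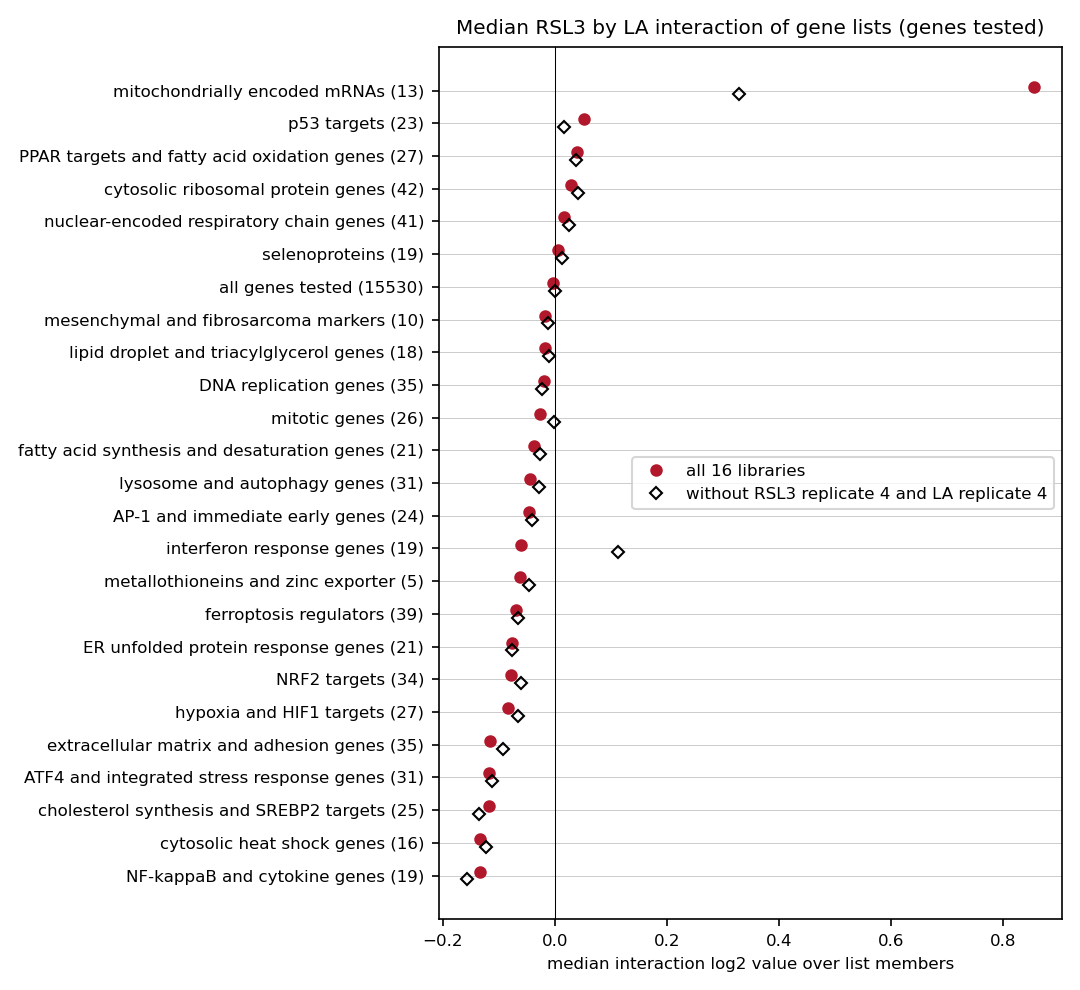
Median interaction (x axis, log2) over the tested members of each gene list (y axis, number tested in brackets), with all 16 libraries (filled circles) and without RSL3 replicate 4 and LA replicate 4 (open diamonds). The NRF2, ATF4, unfolded protein response and heat shock lists lie below the median of all genes at -0.003. So do other lists, among them NF-kappaB and cytokine (-0.134), cholesterol synthesis (-0.117) and extracellular matrix genes (-0.116). Mitochondrially encoded mRNAs stand apart at 0.855, or 0.328 without these 2 libraries.

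Mitochondrially encoded mRNAs had positive values. All 13 tested had a positive interaction at an unadjusted p under 0.05, against 4.86% over all genes. Their median was 0.855, but 0 passed after adjustment by edgeR's test. MT-CO1, a subunit of cytochrome oxidase, had 0.83 ± 0.37 (adjusted p = 0.421) and MT-ND1, of complex I, 0.99 ± 0.38 (adjusted p = 0.356). The share of counts in these mRNAs was 1.65 ± 0.204% in RSL3+LA (1.46% to 1.93%), against 1.03 ± 0.420% in LA (0.451% to 1.44%), and 1.25 ± 0.466% in RSL3 (0.548% to 1.5%), against 1.40 ± 0.1% in DMSO (1.26% to 1.49%; SD, n = 4 each). The groups with LA do not overlap (two-sided exact permutation p = 0.0286, the smallest that 4 against 4 allows), and those without do (exact permutation p = 0.943). The 13 come from the polycistronic transcripts of the mitochondrial genome and so are not separate observations. Without RSL3 replicate 4 and LA replicate 4 their median was 0.328, with 10 positive at an unadjusted p under 0.05, against 533 of 15770 over all genes. Their median RSL3 response without LA was -0.148 with all 16 libraries and 0.101 without these 2. With LA it was 0.692 and 0.44. Nuclear-encoded respiratory chain genes had a median of 0.017 over 41 genes and cytosolic ribosomal protein genes 0.029 over 42, with 0 calls each.

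The other lists had 0 calls in the interaction by edgeR's test, and their counts at an unadjusted p under 0.05 are read against 4.86% positive and 5.65% negative over all genes. Fatty acid synthesis genes (23.8% negative), p53 targets (17.4%) and hypoxia targets (14.8%) were those with 4 or 5 negative members, and without RSL3 replicate 4 and LA replicate 4 they had 4, 2 and 4 negative members (19%, 8.70% and 14.8%, against 3.6%). The medians were -0.134 over 19 NF-kappaB and cytokine genes (2 positive and 2 negative at that p), -0.083 over 27 hypoxia and HIF1 targets (0 and 4), and -0.061 over 19 interferon response genes (1 and 1). They were -0.063 over 5 genes of the metallothionein and zinc exporter list (0 and 1), -0.038 over 21 fatty acid synthesis and desaturation genes (0 and 5), and -0.018 over 18 lipid droplet genes (0 and 0). Cell cycle lists lay near the median of all genes, at -0.020 over 35 DNA replication genes (0 and 1) and -0.027 over 26 mitotic genes (0 and 1). Selenoproteins had 0.005 over 19 genes (1 and 2) and p53 targets 0.051 over 23 (0 and 4). The mesenchymal markers had -0.017 over 10 (0 and 3, or 0 and 1 without the same 2 libraries), and the epithelial markers 0.333 over 4 (0 and 0). SCD, the delta-9 desaturase, was at -0.19 ± 0.04 with LA (adjusted p = 0.0852) and -0.08 ± 0.04 without, with 238 to 261 CPM in RSL3+LA, against 275 to 298 CPM in LA. VEGFA, a hypoxia target, had an interaction of 0.08 (95% interval -0.13 to 0.28), and COL1A1, a collagen I chain that fell with RSL3 without LA (-0.40 ± 0.07, adjusted p = 0.00908), had 0.11 (95% interval -0.10 to 0.32).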

How the data were processed

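RNA-seq was analysed in 16 libraries of HT-1080 cells, 4 per group. The deposited values are raw gene counts made by the authors. HISAT, SAMtools, featureCounts and DESeq2 are named with hg38 per the submitters' processing notes, and versions, annotation and strand setting are not given in the sources used here. Fatty acid doses are taken in µM from the design text, where sample labels write mM. Genes without a symbol keep the table's ID.

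Genes were kept by the default filter of edgeR 4.0.16 (R 4.3.3), scaled by TMM, and fitted with 1 mean per group and a quasi-likelihood test with Benjamini-Hochberg adjustment over 15530 genes. The other 12 libraries of the series entered an alternative fit. The SE is the size of the log2 value over the square root of F, and intervals are at 95%. CPM uses the TMM-scaled library size, and the interaction on the CPM scale has an SE from the group variances. Members and the 26 gene lists were chosen with earlier results of these data known, so list counts and medians are descriptions without a test. Named genes were all that passed, the next by p up to 5 in a direction, fixed genes, and up to 4 members per list with the smallest p. Positions are from GENCODE 29 on GRCh38, where 51 of 51 named genes matched once. Promoters are from RefSeq. Results for some genes are not reported here. The method was run on simulated counts with increases planted in RSL3+LA only. Negative interactions were not simulated, and the outcome is not given here. Depth of at least 16533930 counts per library limits precision at low CPM.

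Alternatives were another scaling, filters, limma 3.58.1 voom with and without sample weights, DESeq2 1.42.0, all 28 libraries, the 8 libraries of a pair, a replicate block, and each library left out. Those added after seeing the data were the removal of both RSL3 replicate 4 and LA replicate 4, DESeq2 without independent filtering, and the CPM scale. Replicate numbers were not used as pairs. Chi-square per degree of freedom between replicates was 2.34 to 13.6, so none was counted as a repeat of another. Figures were drawn with matplotlib 3.10.9 in Python 3.11.15.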

Additional observations from a re-analysis of the deposited data

Results flagged for a closer look

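The 4 interactions past the test are differences of the RSL3 response between cells with and without LA: HMOX1 -1.44, DDIT4 -1.60, SLC7A11 -0.75 and NPC1 -0.38, each from edgeR's test of the difference itself. Among 104 groups of 4 libraries checked (23 genes and 3 library measures in 4 groups each), 5 held a library far from its 3 replicates by Dixon's criterion, and chance gives about 1 in 20. HMOX1 was at 157 CPM in RSL3 replicate 4, against 126 to 128 in the other replicates. DDIT4 was at 7.28 CPM in LA replicate 4, against 5.00 to 5.30. TROAP was at 51.0 CPM in RSL3+LA replicate 3, against 44.7 to 45.6, and at 42.2 CPM in RSL3 replicate 4, against 46.4 to 46.6. The share of mitochondrially encoded mRNA was 0.548% in RSL3 replicate 4, against 1.47% to 1.5%. Without both RSL3 replicate 4 and LA replicate 4, HMOX1 kept its interaction call, at -1.30, and DDIT4, SLC7A11 and NPC1 did not, although their values moved little, to -1.45, -0.71 and -0.34.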

How the results depend on the processing

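The interaction gave 4 calls, and these 4 were also found with all 28 libraries, size factors of DESeq2 in edgeR, a minimum mean of 2 CPM and limma voom. It gave 258 without a low-count filter, 72 with DESeq2, 51 with DESeq2 without independent filtering, 40 with the replicate block, 1 without RSL3 replicate 4 and LA replicate 4, and 3 to 7 with 1 library left out. DESeq2 with its filtering gave HMOX1, SLC7A11 and DDIT4 no adjusted p. RSL3+LA against LA gave 15 calls, and 8 with all 28 libraries, 9 with its 8 libraries alone, 372 without a filter, 87 with the replicate block, 147 with DESeq2 and 129 without its filtering, 34 without both libraries, and 6 to 68 with 1 left out. RSL3 against DMSO gave 38, and 222 without a filter, 79 with sample weights, 94 with DESeq2 and 93 without its filtering, 43 with the replicate block, and 19 to 48 with 1 left out. No named gene changed direction while called, and 55 of 89 gene results kept their side of the threshold in all settings. Most of these 55 were called in no setting. Among results called in the main fit, only HMOX1 in both comparisons kept its call in every setting that gave an adjusted p, with FOS, FOSB and NPIPB5 in RSL3+LA against LA. The cause of these shifts was not tested. Replicate numbers did not meet the criterion for pairs, a correlation of residuals over 0.1 in every number: 9 of 24 exceeded 0.1 (-0.083 to 0.230), and LA with RSL3 did so in 3 of 4 numbers (0.230, 0.161 and 0.184, but 0.028). Of 48 best matches 23 had the same number, where 12 would if numbers carried nothing, a hint from the data and not the design of some shared variation. The NPC1 interaction lost its call in 5 of 16 fits with 1 library left out, while HMOX1, DDIT4 and SLC7A11 kept theirs in all 16.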

Other observations

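The first principal component of the 16 libraries held 26.7% of the variance and separated cells with LA, at -16.0 to -8.37, from cells without, at 9.66 to 11.6. The second held 12.4%, and its lowest scores were -18.97 for RSL3 replicate 4 and -11.86 for LA replicate 4, the libraries with the lowest mitochondrial mRNA share. The biological coefficient of variation was 8.97% in RSL3+LA, 7.27% in LA, 7.76% in RSL3 and 4.49% in DMSO. Detected genes at a common total of 16533930 counts averaged 22377 ± 249 in RSL3 and 22794 ± 123 in DMSO (SD, n = 4 each, two-sided exact permutation p = 0.0286, the smallest possible), against 21884 ± 720 in RSL3+LA and 22189 ± 601 in LA (exact permutation p = 0.486). The median interaction of 19 interferon response genes was -0.061 with all libraries and 0.112 without RSL3 replicate 4 and LA replicate 4.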
